A study of Homo sapiens with 15 samples.

Results

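The genes that encode the subunits, assembly chaperones, activators and inhibitor of the human proteasome were followed across 15 tumor arrays. Members were chosen by name, as every probe whose RefSeq accession belongs to a gene named PSMA, PSMB, PSMC, PSMD, PSME, PSMF or PSMG plus a number. This gave 63 probes of 48 genes, among 34127 probes on the array and 19483 genes named by RefSeq. Another 6 probes, of PSMC3IP, PSME3IP1 and the antisense RNAs PSMA3-AS1 and PSMG3-AS1, only begin with the same letters and were set aside. PSMA8, the testis-specific alpha subunit, was not well above background on any of the 15 arrays, so 62 probes of 47 genes were tested.

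The proteasome is the protease that removes ubiquitin-tagged proteins. Its 20S core is a barrel of alpha and beta rings with the cutting sites inside, and its 19S cap recognizes the ubiquitin chain, removes it and unfolds the substrate with a ring of ATPases. MOAP-1, a BH3-like adaptor that links death receptors and RASSF1A to BAX, is itself turned over through this route.

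The tumors were xenografts of HCT116, a human colon cancer line, in athymic nude mice. The cells had been transfected with one of 5 constructs and 3 tumors were profiled for each. The constructs were the empty pCDNA3 plasmid (Vector), Myc-tagged wild-type MOAP-1, the Myc-tagged MOAP-1 mutants K264R and K278R, in each of which a lysine is replaced by arginine, and RASSF1A. All 5 groups carry the endogenous MOAP1 gene of HCT116, the transfected cells were a pool and not selected clones, and stroma in these tumors is mouse tissue that a human array reads only through cross-hybridization. In bulk tumor RNA, fewer cells of a type and less RNA per cell cannot be told apart.

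Levels are given as log2 of the processed Cy3 signal minus the log2 of the 75th percentile of the same array, so 0 is the 75th percentile and a difference of 1 is a doubling. A probe was called changed when limma's Benjamini-Hochberg adjusted p over 30585 probes was under 0.05 and the change reached 1.5-fold. Each value in a series of 3 is one tumor, in the order of the replicate numbers. The p-values of the fit to all 15 arrays measure the spread between tumors within a construct, pooled over all constructs. The labels do not say whether tumors of a construct came from separate transfections, so that spread may not cover differences between transfections. The 75th percentile of the signal ran from 496 to 1402 over the arrays, 85.1% to 93.1% of spots were well above background, and 61 of the 62 probes were well above background on all 15 arrays. The 12 epithelial probes tested were well above background on all arrays, while CDH17, an intestinal cadherin, was on none.

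The MOAP1 probe (A_23_P205389) read -0.18, -0.53 and -0.13 in the Vector tumors and 0.34, 0.71 and 0.71 in the MOAP-1 tumors. It read 0.11, 0.46 and 0.25 in K264R, and 0.44, 0.42 and 0.53 in K278R. All 9 tumors of the MOAP-1 constructs lay above the Vector tumors, by 0.86 ± 0.14 (SE, adjusted p = 0.000842), 0.55 ± 0.14 (adjusted p = 0.00939) and 0.74 ± 0.14 (adjusted p = 0.00504), the rise in K264R being under 1.5-fold. The RASSF1 probe (A_23_P41066) read 1.56, 1.55 and 1.59 in the tumors labelled RASSF1A against 1.72, 1.52 and 1.81 in Vector, which overlapped (-0.12 ± 0.10, adjusted p = 0.671). Whether either probe reads the transcript of the introduced plasmid is not given in the sources used here, so the RASSF1 probe does not check that label.

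Proteasome genes were more often higher than lower in MOAP-1 tumors. Against Vector, 22 of 62 probes were called (35.5%), 19 higher and 3 lower, where 16.6% of all probes were called. By direction the background was 9.92% called higher and 6.69% called lower. The called probes rose in 19 genes and fell in 2, PSMG4 and PSMB10, and in 11 of the 47 genes every probe was called. In K264R, 23 probes were called (37.1%, background 19.5%), 22 higher (background 9.25%) and 1 lower (background 10.2%). K278R had 16 called probes (25.8%, background 10.9%), all higher (background 7.71%, and 3.2% lower). These 3 comparisons share the 3 Vector arrays. A set of 15 probes was called in all 3 of them, each time higher, and 36 probes were called in none. The shares of all probes called in all 3 or in none were not counted, so these counts have no background beside them. The median change of the 62 probes was 0.29 in MOAP-1, 0.36 in K264R and 0.14 in K278R, where the median over all probes was 0.02, -0.05 and 0.06. The 3 Vector tumors lay on the same slide, with RASSF1A tumor 3, and no Vector tumor shared a slide with a MOAP-1, K264R or K278R tumor, so for these comparisons slide and construct cannot be told apart. With normexp background correction of the raw spot signals, in place of the processed signal, the counts fell to 6, 6 and 0. Of all probes 1.71%, 2.99% and 0.00327% were then called. With spots of extreme local background left out as well, normexp gave 16, 21 and 10 (25.8%, 33.9% and 16.1%). The shares of all probes were then 9%, 29.4% and 4.26%. Without Vector tumor 2 the count of K278R fell to 8 (12.9%, and 5.52% of all probes).

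**Figure D1:**
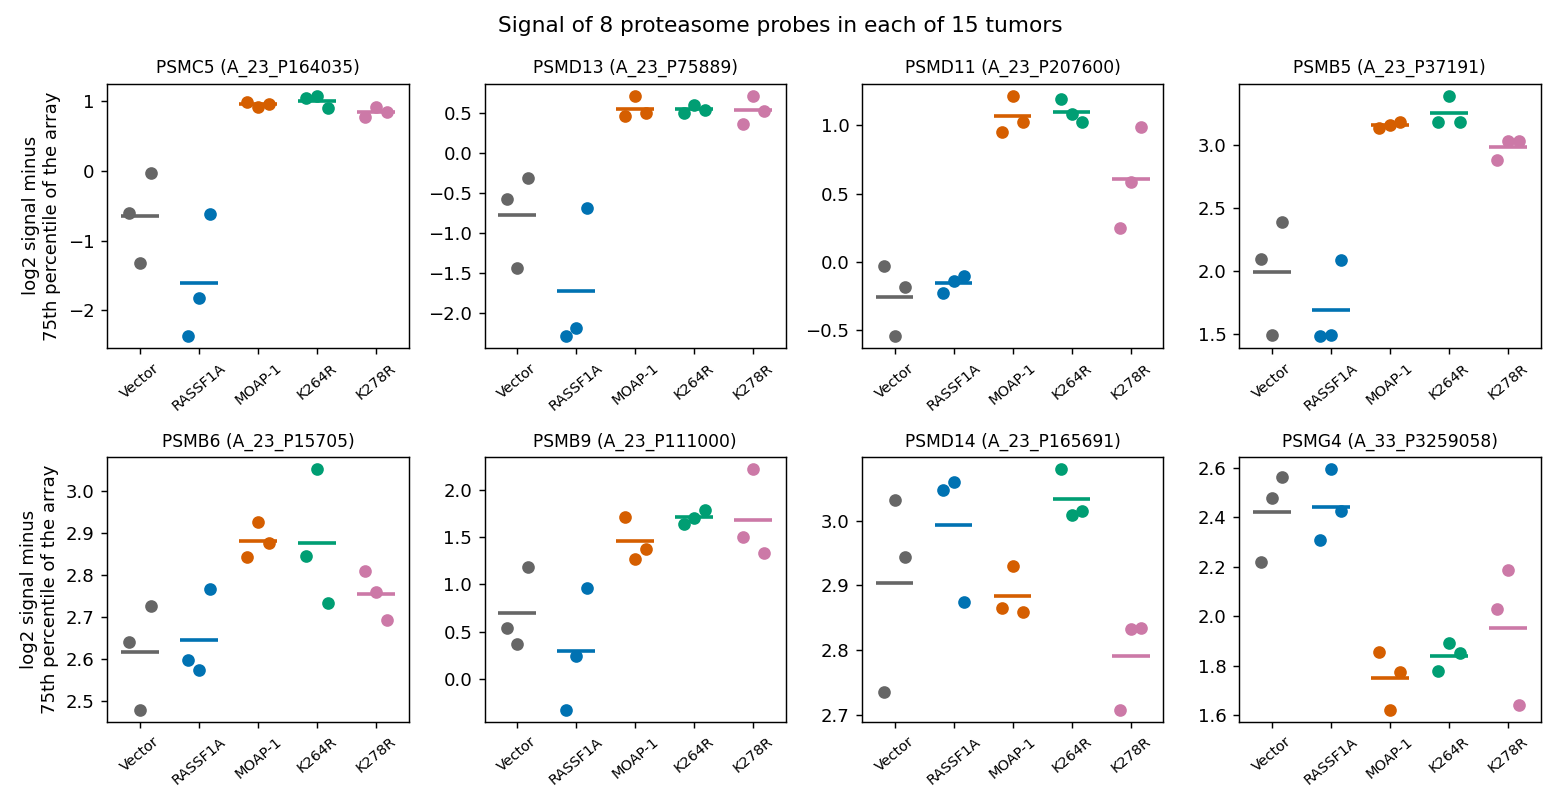
Signal of 8 proteasome probes in each tumor, as log2 signal minus the 75th percentile of the array (vertical axis, scaled per panel), by construct (horizontal axis). Points are tumors and horizontal lines are the means of 3. For PSMC5, PSMD13, PSMD11 and PSMB5 every MOAP-1, K264R and K278R tumor sits above every Vector tumor, for PSMG4 every one of them sits below, and for PSMD14 the groups overlap.

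The alpha ring closes the ends of the 20S barrel and gates entry. Among its 8 probes 1 was called in MOAP-1 tumors, and the same probe in K264R and K278R. This was the dimmer probe of PSMA1 (A_33_P3288384), at -4.69, -4.79 and -4.74 in Vector and -3.73, -3.62 and -3.50 in MOAP-1 (1.12 ± 0.18, adjusted p = 0.000786). The brighter PSMA1 probe (A_23_P150286) read 3.35, 3.70 and 3.55 against 3.58, 3.50 and 3.46, with a change of -0.02. The other alpha subunits moved little. PSMA5 rose by 0.39 (adjusted p = 0.00692) and PSMA6 fell by 0.38 (adjusted p = 0.0105), both under 1.5-fold, and the changes of PSMA2, PSMA3, PSMA4 and PSMA7 were 0.28, -0.22, 0.21 and 0.43 with adjusted p from 0.0592 to 0.404.

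Of the beta ring's structural subunits, which carry no active site, 2 of 6 probes rose in each of the 3 MOAP-1 constructs. PSMB2 (A_23_P170058) read 0.57, 0.17 and 0.82 in Vector and 1.86, 1.79 and 1.72 in MOAP-1, without overlap (1.27 ± 0.17, 2.41-fold, adjusted p = 0.000299). PSMB1 (A_23_P156531) read 2.51, 2.34 and 2.86 in Vector and 3.53, 3.54 and 3.49 in MOAP-1 (0.95 ± 0.12, 1.93-fold, adjusted p = 0.000259). The other probe of PSMB2 rose by 0.37 (adjusted p = 0.018) and that of PSMB1 read -0.28 (adjusted p = 0.111). PSMB3 rose by 0.30 and PSMB4 changed by -0.27, both below 1.5-fold.

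The 3 constitutive active sites behaved unequally. PSMB5, the chymotrypsin-like site and the main target of bortezomib, read 2.10, 1.49 and 2.39 in Vector and 3.13, 3.16 and 3.18 in MOAP-1. It read 3.18, 3.39 and 3.18 in K264R and 2.88, 3.03 and 3.03 in K278R. All 9 tumors lay above the Vector tumors, by 1.16 ± 0.20 (2.24-fold, adjusted p = 0.00113), 1.26 (adjusted p = 0.000504) and 0.99 (adjusted p = 0.00641). PSMB6, the caspase-like site, read 2.64, 2.48 and 2.73 in Vector and 2.84, 2.93 and 2.87 in MOAP-1. The groups did not overlap, but the difference of 0.26 ± 0.10 was not called (adjusted p = 0.0648). PSMB7, the trypsin-like site, read 3.48, 3.48 and 3.60 against 3.62, 3.58 and 3.78, which overlapped (0.14 ± 0.10, adjusted p = 0.278).

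In the immunoproteasome, which interferon induces and which serves antigen presentation, PSMB8, PSMB9 and PSMB10 take the places of PSMB5, PSMB6 and PSMB7. These genes also went separate ways. PSMB8 read -3.34, -3.49 and -3.19 in Vector and -3.12, -3.40 and -3.28 in MOAP-1, which overlapped (0.07 ± 0.17, adjusted p = 0.767), and it changed by -0.03 in K264R and -0.11 in K278R. PSMB9 read 0.54, 0.37 and 1.19 in Vector, 1.72, 1.27 and 1.38 in MOAP-1, 1.65, 1.71 and 1.79 in K264R, and 1.50, 2.22 and 1.34 in K278R. Its rise was called in K264R (1.02 ± 0.31, adjusted p = 0.0214) and K278R (0.99 ± 0.31, adjusted p = 0.0388) and not in MOAP-1 (0.76 ± 0.31, adjusted p = 0.0784), and the difference between MOAP-1 and either mutant was not called. PSMB10 read 3.0, 2.94 and 3.16 in Vector and 2.61, 2.30 and 2.39 in MOAP-1, lower in every tumor (-0.60 ± 0.17, adjusted p = 0.0203). The call is close to the 1.5-fold limit and was made in 11 of 19 settings of the processing. The probes of PSMB11, the thymic active site, changed by -0.14 and -0.11 and overlapped.

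Assembly chaperones of the 20S core, which guide the building of the rings and are not part of the finished core, held 2 of the 3 probes called lower in MOAP-1. PSMG4 was the only gene with every one of several probes called in MOAP-1 against Vector. Its brighter probe (A_33_P3259058) read 2.22, 2.48 and 2.56 in Vector, 1.85, 1.62 and 1.77 in MOAP-1, 1.78, 1.89 and 1.85 in K264R, and 2.03, 2.19 and 1.64 in K278R. All 9 tumors lay below the Vector tumors, by -0.67 ± 0.14 (1.59-fold, adjusted p = 0.00355), -0.58 ± 0.14 (adjusted p = 0.0065) and -0.47 ± 0.14 (adjusted p = 0.0328), in the mutants just under 1.5-fold and so not called. The dimmer probe (A_33_P3259053) read -4.32, -4.60 and -4.48 in Vector and -5.46, -5.12 and -5.01 in MOAP-1, with changes of -0.73 ± 0.17 (adjusted p = 0.00738), -0.86 (adjusted p = 0.00233) and -0.53 (adjusted p = 0.0451, under 1.5-fold) in the 3 constructs. PSMG3, the partner of PSMG4, went the other way, from 0.02, -0.33 and 0.43 in Vector to 0.83, 0.83 and 0.83 in MOAP-1 (0.79 ± 0.22, adjusted p = 0.0182). PSMG1 changed by -0.48 (adjusted p = 0.0688). Its partner PSMG2 rose by 0.56 (adjusted p = 0.0243), under 1.5-fold, and was called in K264R (0.73, adjusted p = 0.00502).

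The base of the 19S cap holds the ATPase ring that unfolds substrates. Of its 7 probes 2 were called in MOAP-1, 3 in K264R and 2 in K278R, all higher, with a median change of 0.50 in MOAP-1. PSMC5 had the largest rise of any proteasome probe. It read -0.61, -1.32 and -0.03 in Vector, 1.00, 0.92 and 0.97 in MOAP-1, 1.04, 1.08 and 0.90 in K264R, and 0.78, 0.92 and 0.85 in K278R. The 9 tumors lay within 0.78 to 1.08 and did not overlap the Vector tumors, which spread from -1.32 to -0.03 (1.62 ± 0.36, 3.07-fold, adjusted p = 0.0051 in MOAP-1, 1.66, adjusted p = 0.00348 in K264R, and 1.50, adjusted p = 0.0132 in K278R). PSMC4 rose from -0.20, -0.70 and -0.08 to 0.73, 0.69 and 0.54 (0.98 ± 0.17, adjusted p = 0.000996). PSMC3 read -0.10, -0.79 and 0.27 in Vector and 0.86, 1.02 and 0.86 in MOAP-1, without overlap, but its spread left it uncalled (1.12 ± 0.43, adjusted p = 0.0625). PSMC2 rose by 0.50 (adjusted p = 0.000753), under 1.5-fold. PSMC6 changed by 0.20 (adjusted p = 0.253) and the PSMC1 probes by -0.10 and 0.05, so the 6 ATPases of the ring ran from no called change to 3.07-fold.

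The base subunits without ATPase activity include the scaffolds PSMD1 and PSMD2 and the ubiquitin receptor PSMD4. PSMD1 (A_24_P128205) rose by 0.64 (adjusted p = 0.00497) and PSMD2 (A_24_P42681) by 0.70 (adjusted p = 0.0108) in MOAP-1, while the brighter probe of each changed by -0.04 and 0.05. PSMD4 read 3.94, 4.16 and 4.19 in Vector and 3.90, 3.81 and 3.80 in MOAP-1. It was lower in every MOAP-1 tumor by a margin that was not called (-0.26 ± 0.12, adjusted p = 0.111).

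An arc of scaffold proteins and the deubiquitinase PSMD14 form the lid, where 4 of 8 probes rose in MOAP-1 and K264R and 3 in K278R. PSMD11, a scaffold subunit that ties the lid to the core, read -0.03, -0.54 and -0.19 in Vector, 0.95, 1.22 and 1.03 in MOAP-1, 1.19, 1.08 and 1.02 in K264R, and 0.25, 0.59 and 0.99 in K278R. None of the 9 overlapped Vector (1.32 ± 0.17, 2.5-fold, adjusted p = 0.000255, then 1.35, adjusted p = 0.000137, and 0.86, adjusted p = 0.0054), and it was among the 4 probes called in MOAP-1 against Vector under every setting run, with PSMB1, PSMB2 and PSMC4. PSMD13 read -0.57, -1.44 and -0.30 in Vector, 0.46, 0.71 and 0.50 in MOAP-1, 0.51, 0.60 and 0.54 in K264R, and 0.36, 0.72 and 0.53 in K278R. Again no tumor overlapped Vector (1.33 ± 0.36, adjusted p = 0.0137, then 1.32, adjusted p = 0.012, and 1.31, adjusted p = 0.0226), and without Vector tumor 2 the first of these was 1.00 with adjusted p = 0.068. PSMD3 rose by 0.68 (adjusted p = 0.0265) and PSMD8 by 0.62 (adjusted p = 0.0361), the latter called in 8 of 19 settings. PSMD14, which cuts the ubiquitin chain off the substrate, read 2.74, 3.03 and 2.94 in Vector and 2.86, 2.93 and 2.86 in MOAP-1, which overlapped (-0.02 ± 0.09, adjusted p = 0.889). PSMD6 rose by 0.48 (adjusted p = 0.00751), under 1.5-fold, and PSMD7 and PSMD12 changed by -0.23 and -0.07 without a call.

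The 19S assembly chaperones PSMD5, PSMD9 and PSMD10 bind pairs of ATPases before the cap closes. In each gene 1 probe was called higher in all 3 constructs, and it was the dimmer one. PSMD10, also called gankyrin and known as an oncoprotein of liver cancer, read -3.77, -3.93 and -3.59 in Vector and -2.22, -2.14 and -2.15 in MOAP-1 on A_33_P3335621. It read -2.24, -2.19 and -2.30 in K264R, and -2.96, -2.90 and -2.23 in K278R. No tumor overlapped Vector (1.59 ± 0.16, 3.01-fold, adjusted p = 0.000159, then 1.52, adjusted p = 8.66e-05, and 1.06, adjusted p = 0.00222). Its brighter probe changed by 0.52 in MOAP-1 (adjusted p = 0.0611) and was called in K264R (0.66, adjusted p = 0.0192). PSMD5 rose by 0.88 (adjusted p = 0.000767) on its dimmer probe and changed by -0.36 (adjusted p = 0.0578) on the brighter.

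The dimmer PSMD9 probe (A_24_P116017) was not well above background in any Vector tumor, where it read -6.79, -7.27 and -6.92. It read -6.14, -5.73 and -5.85 in MOAP-1, -5.60, -5.60 and -5.99 in K264R, and -5.48, -5.65 and -5.33 in K278R. Set against the lowest processed signal flagged well above background on each Vector array, these are at least 1.56-fold, 1.76-fold and 2.08-fold higher. That bound holds for the processed signal only. The probe passed the filter on dim probes only through the groups where it was high, so these values are a description. A separate fit took only probes well above background on all 15 arrays. There 21, 23 and 15 of the 61 proteasome probes were called (34.4%, 37.7% and 24.6%), and 16.5%, 19.8% and 10.5% of all probes. The brighter PSMD9 probe changed by 0.06 (adjusted p = 0.649). With normexp background correction, PSMA1 (A_33_P3288384, -0.96), PSMD5 (A_33_P3305254, -0.83), PSMD9 (A_24_P116017, -1.63) and PSMD10 (A_33_P3335621, -0.026) no longer rose in MOAP-1 against Vector. In K264R and K278R these probes then read -0.33 and -0.98 for PSMA1, -0.34 and -0.91 for PSMD5, -0.86 and -1.43 for PSMD9, and 0.29 and -0.34 for PSMD10. Spots of extreme local background lay only on Vector tumors 2 and 3 (6 and 5) and K264R tumor 2 (6). Leaving them out moved the normexp median of all probes in MOAP-1 against Vector from -0.53 to -0.15. Of the 22 probes called in MOAP-1 against Vector, 5 stayed called under normexp and 15 with those spots left out. In that last setting the dimmer PSMD9 probe met the call in K264R as lower (-0.70, limma adjusted p = 0.00165). It then read -0.37 in MOAP-1 and -0.17 in K278R, without a call.

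Activators dock on the ends of the barrel in place of the 19S cap. PSME3, the nuclear activator, read -0.24, -0.52 and -0.45 in Vector and 0.36, 0.54 and 0.20 in MOAP-1 (0.77 ± 0.14, 1.71-fold, adjusted p = 0.00176), without overlap. PSME4 (A_23_P79628) read -1.26, -1.46 and -1.30 against -0.64, -0.56 and -0.67 (0.72 ± 0.13, adjusted p = 0.00136), also without overlap, while its dimmer probe changed by -0.14. Both were called in K264R (0.76 and 0.72) and fell short of 1.5-fold in K278R (0.49 and 0.46). The interferon-inducible pair did not follow. PSME1 read -0.15, -0.46 and 0.01 in Vector and 0.12, -0.04 and -0.22 in MOAP-1, which overlapped (0.15 ± 0.14, adjusted p = 0.43). PSME2 read 5.19, 5.36 and 5.53 against 5.13, 4.92 and 4.93, lower in every MOAP-1 tumor but not called (-0.37 ± 0.13, adjusted p = 0.0526). PSMF1, or PI31, which inhibits the core in the test tube, had 1 of 4 probes called (A_33_P3229722), from -1.94, -2.17 and -1.51 in Vector to -0.93, -0.96 and -1.01 in MOAP-1 (0.90 ± 0.20, adjusted p = 0.00431). The other probes changed by 0.38, 0.37 and -0.19.

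**Figure D2:**
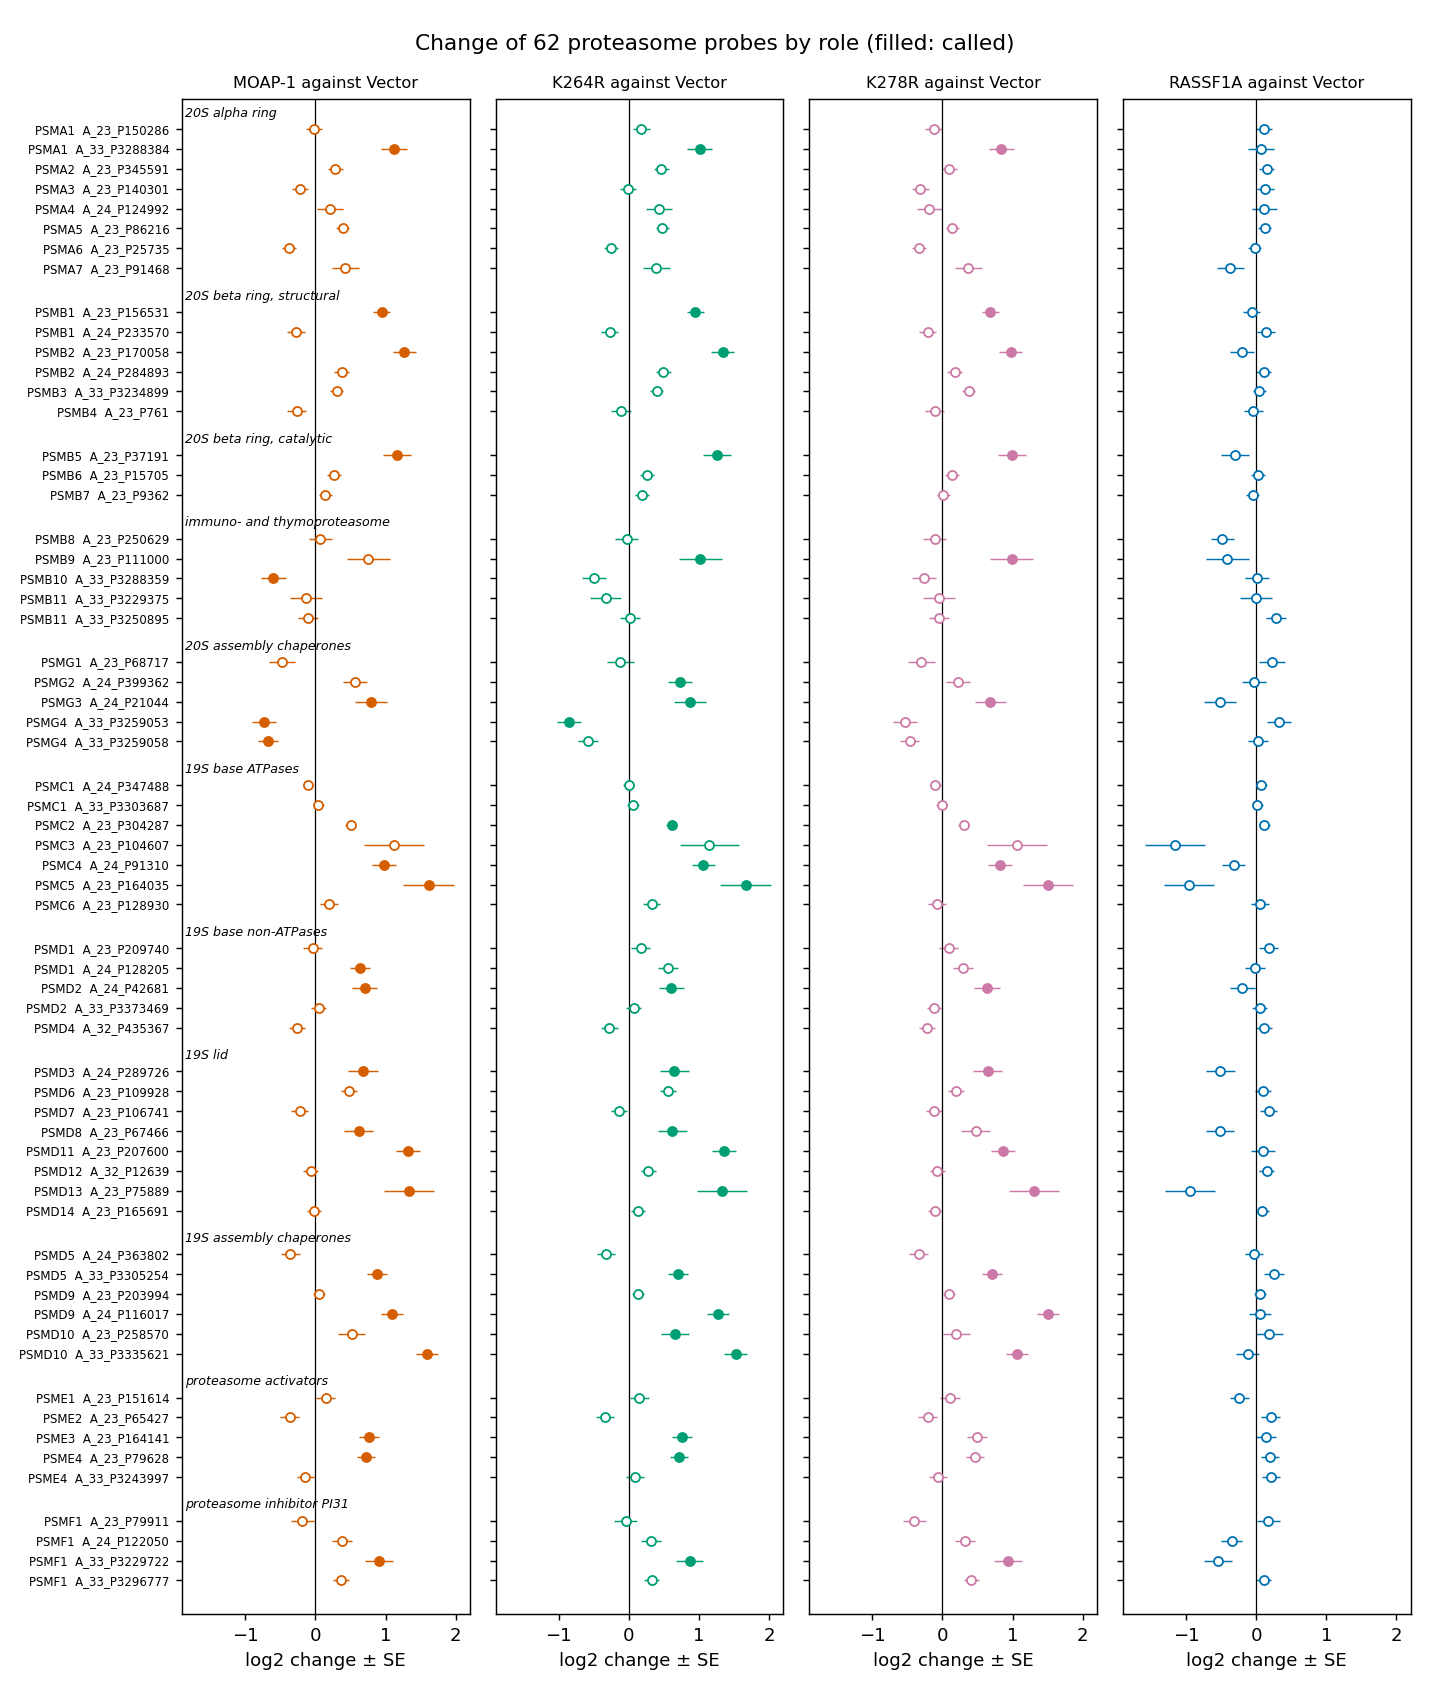
Change against Vector (log2, horizontal axis, bars are SE) of each of 62 proteasome probes (rows, grouped by role) in MOAP-1, K264R, K278R and RASSF1A tumors. Filled points were called, 22, 23, 16 and 0 from left to right, and each role holds called and uncalled probes in MOAP-1.

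The mutants were compared with wild-type MOAP-1 to see whether the lysines bear on these genes. Between MOAP-1 and K264R no proteasome probe was called (background 0.00327%). An unadjusted limma p under 0.05 was reached by 1 of 62, a smaller share than the 10.9% of all probes. The median difference, MOAP-1 minus K264R, was -0.07, and 0.07 over all probes. Between MOAP-1 and K278R none was called by limma (background 0%). Here 10 of 62 had an unadjusted p under 0.05, a larger share than the 9.22% of all probes. The median difference was 0.08, and -0.05 over all probes. Without tumor 3 of K278R 3 probes were called, 2 higher and 1 lower in MOAP-1, and 0.67% of all probes. These tests do not show that the mutants act like the wild type, only that no difference was called at 3 tumors per construct. MOAP-1 and K264R tumors shared no slide, so slide and construct cannot be told apart between them. Of the MOAP-1 tumors only tumor 2 shared a slide with the K278R tumors.

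The tumors labelled RASSF1A were set against Vector and against MOAP-1. Against Vector, none of 62 probes was called by limma (background 0%), 9 had an unadjusted p under 0.05 (12.1% of all probes did) and the median difference was 0.05. Without RASSF1A tumor 3 this count was 8 (12.9%), all lower in RASSF1A, and 4.6% of all probes were called. MOAP-1 and RASSF1A tumors shared no slide, so slide and construct cannot be told apart between them. They differed at 27 probes (43.5%, background 21.2%), 23 higher in MOAP-1 (background 13%) and 4 lower (background 8.14%). The median difference was 0.26, where that of all probes was -0.01. PSMC5 stood at -2.37, -1.83 and -0.62 in RASSF1A, so it was 2.57 ± 0.36 higher in MOAP-1 (5.95-fold, adjusted p = 0.000169). PSMD13 stood at -2.29, -2.19 and -0.69 (2.28 ± 0.36, 4.85-fold, adjusted p = 0.000349) and PSMC3 at -2.59, -1.31 and -0.19 (2.27 ± 0.43, 4.84-fold, adjusted p = 0.00116). None of the 3 overlapped MOAP-1. PSMB5 (1.47) and PSMB9 (1.17, adjusted p = 0.00961) were higher in MOAP-1 too, and PSMB8, from -4.00, -4.02 and -3.43, was higher by 0.55 (adjusted p = 0.0189), under 1.5-fold. On the other side, PSMG4 was lower in MOAP-1 on each probe (-1.05 and -0.69), PSMB10 by -0.61 (adjusted p = 0.0137), and PSMG1, at 3.56, 3.99 and 3.50 in RASSF1A and 3.10, 2.90 and 2.95 in MOAP-1, by -0.70 ± 0.19 (adjusted p = 0.0102).

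RASSF1A tumors 1 and 2 were hybridized on a slide of their own with a later scan day, and stood apart from RASSF1A tumor 3, which shared the slide of the Vector tumors. In them 10 of 62 probes were at least 1.5-fold lower than in tumor 3 (5.88% of all probes) and 0 were higher by that much (3.67% of all probes). PSMC3 differed by -1.76, PSMD13 by -1.55, PSMC5 by -1.48 and PSMB9 by -1.01. Vector tumor 2 showed a smaller gap from Vector tumors 1 and 3, with 5 probes at least 1.5-fold lower (4.16% of all probes), PSMD13 and PSMC5 by -1.0 each, PSMC3 by -0.88, PSMB5 by -0.75 and PSMD8 by -0.66. Of the 10 probes that were low in RASSF1A tumors 1 and 2, 7 were called higher in MOAP-1 against Vector. The matching share among all probes with such a gap was not counted. Across the 62 probes the gap and the MOAP-1 change had a Spearman correlation of -0.67, against -0.19 over all probes, given as a description since probes share tumors and arrays. The part of slide or scan day in this gap was not tested. Leaving out Vector 2, RASSF1A 1 and RASSF1A 2 together left 14 probes called between MOAP-1 and RASSF1A in place of 27 (22.6%, and 11.2% of all probes). That fit has a single RASSF1A tumor, which is assumed to vary like the other groups. PSMD11, at -0.23, -0.14 and -0.11 over the RASSF1A tumors, showed no such gap and stayed called between MOAP-1 and RASSF1A in every setting.

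**Figure D3:**
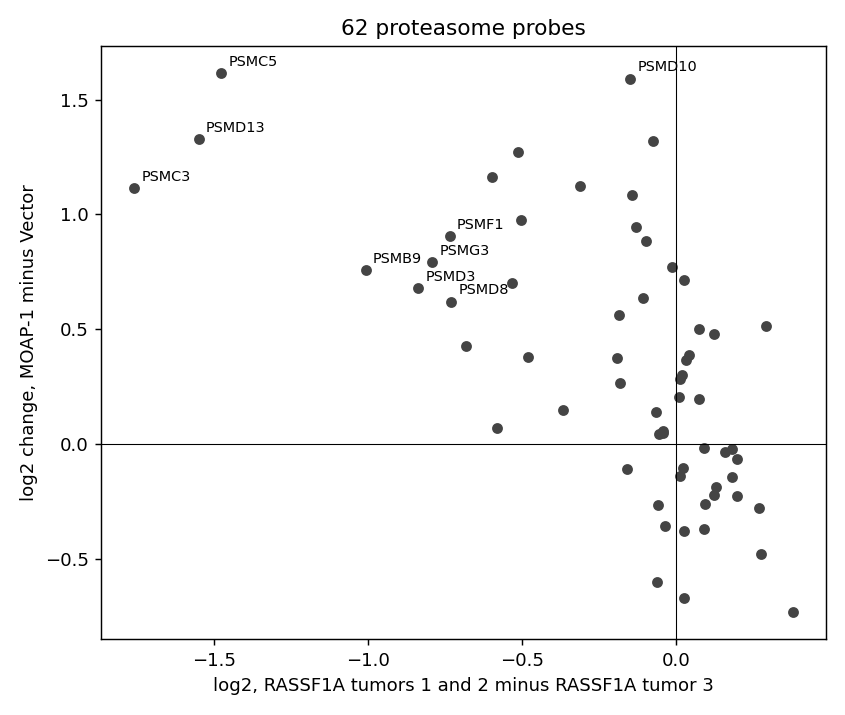
For each of 62 proteasome probes, the log2 difference between RASSF1A tumors 1 and 2 and RASSF1A tumor 3 (horizontal axis) against the log2 change of MOAP-1 from Vector (vertical axis). Points are probes. PSMC5, PSMD13 and PSMC3 lie at the upper left, below -1.4 on the horizontal axis, and PSMD10 has a large MOAP-1 change with a gap near 0.

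Probes of the same gene often differed. Of the 13 genes with several tested probes, 10 had some but not all probes called in MOAP-1 against Vector, 2 had none (PSMB11 and PSMC1) and 1 had all (PSMG4). No gene had probes called in opposite directions, but in 7 the probes had opposite signs, and the median gap between the highest and the lowest change of a gene was 0.90. In 9 of the 10 genes with 1 called probe, that probe was the dimmest of its gene, and PSME4 was the exception. Over the 62 probes the change and the mean signal had a Spearman correlation of -0.42, against -0.23 over 30473 probes, again as a description. Among the 31 brighter probes 6 were called (19.4%), near the 18.1% of all probes in that range of signal, and the median change was 0.05. Among the 31 dimmer probes 16 were called (51.6%, and 16.4% of all probes in that range) and the median change was 0.64. When each gene was read by its brightest probe alone, 12 of 47 genes were called in MOAP-1 against Vector (25.5%, and 15.5% over the brightest probe of every named gene and every unnamed probe), with a median change of 0.20. Where each probe lies on the transcripts of its gene was not analysed here.

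**Figure D4:**
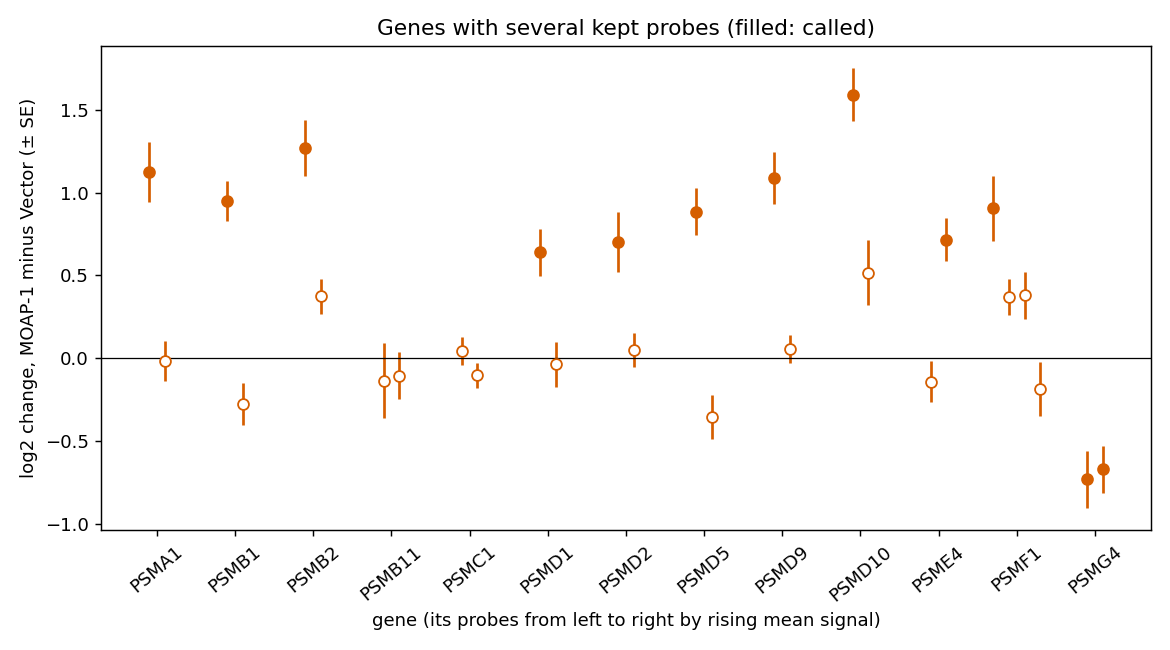
Change of MOAP-1 from Vector (log2, vertical axis, bars are SE) for each probe of the 13 genes with several tested probes (horizontal axis, probes of a gene ordered from left to right by rising mean signal). Filled points were called. In all genes with 1 filled point but PSME4, that point is the leftmost of its gene.

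Proteasome genes are known to share a promoter element bound by NRF1 (NFE2L1), the antioxidant response element, and many hold a CCAAT box. The RefSeq promoter table (GRCh38.p14) held 42 of the 48 genes and not PSMA7, PSMB1, PSMB6, PSMB7, PSMD4 and PSMG3. The core TGACNNNGC was searched on both strands in the 250 bases before each start and was found in 13 of 42 genes (31.0%), where 13.2% of 27305 genes had it. It was in 5 of the 17 genes with a probe called higher in MOAP-1 against Vector (29.4%), PSMC5, PSMD3, PSMD5, PSMD9 and PSME4, and in 8 of the other 25 (32%). CCAAT was found in 19 of 42 genes (45.2%, and 37.0% of all genes), in 6 of 17 and 13 of 25, and overlapped no match of the core. The share with the core among the genes that rose thus lay close to that of the rest. A match is a description of letters and not a binding site.

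Sequences of 6 promoters are shown for genes whose values carry the results, 250 bases up to the start, 5′ to 3′ on the gene's strand, with any match of the core in capitals and positions counted back from the start. PSMD11 and PSMD13 rose in all 3 MOAP-1 constructs without a match. PSMD11 is at chr17:32444260-32444509 on the plus strand and PSMD13 at chr11:236726-236975 on the plus strand.
PSMD11: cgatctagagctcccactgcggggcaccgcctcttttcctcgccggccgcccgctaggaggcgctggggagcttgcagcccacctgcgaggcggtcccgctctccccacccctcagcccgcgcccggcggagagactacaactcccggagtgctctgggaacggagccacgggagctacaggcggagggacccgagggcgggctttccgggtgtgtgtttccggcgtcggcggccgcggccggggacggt
PSMD13: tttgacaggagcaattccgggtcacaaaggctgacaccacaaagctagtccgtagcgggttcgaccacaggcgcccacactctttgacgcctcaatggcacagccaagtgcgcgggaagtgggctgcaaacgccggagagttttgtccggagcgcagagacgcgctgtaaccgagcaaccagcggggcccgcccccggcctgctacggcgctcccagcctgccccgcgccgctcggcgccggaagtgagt
PSMD3 and PSMD5 also rose and hold the core, which begins at -37 in PSMD3 (chr17:39980557-39980806 on the plus strand) and at -134 in PSMD5 (chr9:120842923-120843172 on the minus strand).
PSMD3: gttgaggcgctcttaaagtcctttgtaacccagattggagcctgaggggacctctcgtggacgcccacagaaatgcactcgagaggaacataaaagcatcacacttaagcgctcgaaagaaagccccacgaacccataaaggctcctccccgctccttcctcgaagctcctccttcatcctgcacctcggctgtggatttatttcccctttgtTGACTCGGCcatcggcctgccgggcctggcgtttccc
PSMD5: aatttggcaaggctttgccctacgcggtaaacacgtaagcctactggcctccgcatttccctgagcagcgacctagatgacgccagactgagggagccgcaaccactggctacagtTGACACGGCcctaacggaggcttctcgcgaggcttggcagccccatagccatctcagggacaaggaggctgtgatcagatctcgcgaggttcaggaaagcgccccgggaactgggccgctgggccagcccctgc
PSMB9, called in the mutants, holds it on the reverse strand at -148 (chr6:32853942-32854191 on the plus strand), and PSMG4, which fell, has no match (chr6:3258697-3258946 on the plus strand). The PSMG4 start in the table lies 4543 bases inside the gene as RefSeq lists it, and the bases before the gene's outer start were not searched.
PSMB9: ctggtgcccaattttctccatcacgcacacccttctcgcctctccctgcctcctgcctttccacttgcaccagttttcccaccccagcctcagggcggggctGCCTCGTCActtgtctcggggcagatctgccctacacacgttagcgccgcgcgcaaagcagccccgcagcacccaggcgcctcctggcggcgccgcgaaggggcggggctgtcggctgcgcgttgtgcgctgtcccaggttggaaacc
PSMG4: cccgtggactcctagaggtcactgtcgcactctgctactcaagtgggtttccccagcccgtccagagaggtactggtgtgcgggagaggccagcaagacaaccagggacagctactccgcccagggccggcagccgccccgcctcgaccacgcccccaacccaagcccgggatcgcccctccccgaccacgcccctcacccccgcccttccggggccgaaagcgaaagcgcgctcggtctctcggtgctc

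Genes around the proteasome gave a mixed picture in MOAP-1 against Vector. Among 19 probes for ubiquitin, its activating enzymes and the shuttles, 2 rose and 2 fell (21.1%, where 16.6% of all probes were called). UBA1, the main ubiquitin-activating enzyme, went from -0.41, -0.98 and -0.25 in Vector to 0.64, 1.12 and 0.62 (1.35 ± 0.27, adjusted p = 0.00267), and UBQLN4 rose by 0.74. Among those that fell was the segregase VCP, from 3.78, 3.95 and 3.38 to 2.94, 2.97 and 3.12 (-0.69 ± 0.14, adjusted p = 0.00351). Among 11 probes of other proteasome-associated proteins 1 rose, the deubiquitinase USP14 (1.57 ± 0.38, adjusted p = 0.00882, from -5.35, -5.38 and -5.41 to -3.61, -3.90 and -3.94). Of 8 probes for NRF1 and its partners, whose route drives proteasome genes, none was called by limma, 1 had an unadjusted p under 0.05 and NFE2L1 changed by 0.09. The anaphase-promoting complex and TRIM39, ubiquitin ligases that bear on the turnover of MOAP-1, had 4 probes higher and 0 lower of 24 (16.7%, near the background), led by ANAPC15 (1.22, adjusted p = 0.032) and ANAPC1 (1.1 on A_33_P3262138).

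Antigen processing, which uses the products of the immunoproteasome, had 2 probes higher and 2 lower of 21 (19%, near the background). NLRC5, the class I transactivator, rose by 0.89 (adjusted p = 0.0116) and TAPBP by 0.63 (adjusted p = 0.0181). ERAP1, a peptide-trimming enzyme, was among those that fell (-0.69, adjusted p = 0.0311). Markers of cell types were counted too. In MOAP-1 against Vector the share called higher was 28.6% for fibroblast, 10% for leukocyte and 8.33% for epithelial markers. Of all probes 9.92% were called higher, so the last 2 lay near the background. Counts at adjusted p under 0.05 without the fold limit have no share of all probes beside them here. Fibroblast markers had 2 of 7 probes called higher in MOAP-1 against Vector, and their summed signal, in units of the 75th percentile, ran from 1.94 to 6.80 in Vector, 5.28 to 40.7 in MOAP-1, 4.24 to 18.1 in K264R, 9.72 to 38.2 in K278R and 7.20 to 10.5 in RASSF1A, with LUM on no array. Leukocyte markers had 1 of 10 called higher, and 4 were lower at adjusted p under 0.05 without reaching 1.5-fold. Their summed signal ran from 27.4 to 31.2 in Vector, 21.7 to 26.5 in MOAP-1, 20.04 to 22.7 in K264R, 24.7 to 28.3 in K278R and 29.4 to 33.8 in RASSF1A. Epithelial markers had 1 of 12 called higher and 3 lower below 1.5-fold, with sums of 278.5 to 317.3 in Vector, 232 to 266 in MOAP-1, 212 to 238 in K264R, 192 to 270 in K278R and 242 to 275 in RASSF1A. Both sums were thus lower in every MOAP-1 and K264R tumor than in every Vector tumor. The epithelial sum was also lower in every K278R and RASSF1A tumor than in every Vector tumor. Of endothelial and erythroid markers 0 of 4 and 0 of 5 were called (3 and 2 at an unadjusted limma p under 0.05). Their part in the proteasome results was not tested.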

How the data were processed

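RNA of 15 HCT116 xenografts was hybridized to human Agilent arrays in the Cy3 channel, with 3 tumors for each of 5 constructs. The deposited files hold processed spot intensity from Agilent Feature Extraction (version 10.5.1.1 in the file headers, 9.1 per the labels), already background-corrected. The authors also deposited a table of normalized log2 values, used as an alternative; 8 of its columns track the array they are named for and 7 track a different tumor of that construct. No column of values was left unused.

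Control and outlier spots were dropped, spots of a probe were averaged, and log2 intensity was centred on the 75th percentile of each array. Accessions were matched to RefSeq symbols for 25422 of 34127 probes (74.5%). Probes well above background in all 3 tumors of a construct were kept (30585), and a few missing values (112 probes) were left missing. All 15 arrays entered one fit (limma 3.58.1, R 4.3.3, lmFit and eBayes, 10 residual degrees of freedom, construct as the only term), with Benjamini-Hochberg adjustment. The fit was tested on simulated data. Their number, 3 arrays per construct, limits the precision.

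Members, gene lists and tests were chosen with earlier results of these data known. Values per tumor are given for MOAP1, RASSF1, the catalytic and immunoproteasome subunits, PSMD14, PSMD4, activators and PSMF1, and for the 3 largest rises and falls called in each comparison. Other lists are given as counts with the 2 largest called changes each way. A few items that this rule names are not reported here. The probes of PSMA1, PSMB1, PSMB2, PSMC2, PSMC4, PSMD3, PSMD5, PSMG2, PSMG3 and other members were described after their values were seen. The labels do not pair tumors across constructs by number. After construct means were removed, same-numbered tumors had a correlation over 0.1 in 15 of 30 pairs (median 0.11). Tumors of different numbers had it in 19 of 60 (median -0.04).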

Additional observations from a re-analysis of the deposited data

Results flagged for a closer look

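The change of the proteasome genes differed between the MOAP-1 and RASSF1A constructs, 2 treatments set against the same Vector tumors. The difference itself passed the test at 27 of 62 probes (limma, adjusted p under 0.05 and 1.5-fold), where 21.2% of all probes passed. The constructs shared no slide, so slide and construct cannot be told apart. The count was 27, 22 and 29 without RASSF1A tumor 1, 2 or 3, where 18.7%, 19.1% and 23.5% of all probes passed. It was 14 (11.2% of all probes) with RASSF1A tumors 1 and 2 and Vector tumor 2 left out, where a single RASSF1A tumor is assumed to vary like the other groups.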

How the results depend on the processing

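Counts of proteasome probes called are given in the order MOAP-1, K264R and K278R against Vector, then MOAP-1 against RASSF1A (22, 23, 16 and 27). Normexp background correction left 6, 6, 0 and 17, where 1.71%, 2.99%, 0.00327% and 7.39% of all probes were called. Reading each gene by its brightest probe left 12, 14, 8 and 16 (25.5%, 29.8%, 17% and 34%). The shares of all probes in that setting were 15.5%, 18.5%, 9.97% and 19.9%. Normexp without spots of extreme local background left 16, 21, 10 and 21, where 9%, 29.4%, 4.26% and 12.5% of all probes were called. Fitting only the arrays compared left 5 in K278R (8.06%, and 3.83% of all probes). The methods' t-test after Benjamini-Hochberg gave 13 in MOAP-1 (21%, and 8.62% of all probes). In K278R it gave 0, as it did over all 30570 probes tested. Unadjusted, with the fold limit, it gave 22, 23, 15 and 27, beside 4913, 5887, 3124 and 6137 of all probes. Without one tumor at a time the counts ran from 18 to 25, 16 to 24, 8 to 17 and 22 to 29. Of all probes 12.3% to 18.6%, 16% to 22.1%, 5.52% to 12.9% and 18.7% to 23.5% were then called. For RASSF1A against Vector the counts ran from 0 to 8 (8 without RASSF1A tumor 3, and 4.6% of all probes). They ran from 0 to 0 for MOAP-1 against K264R and 0 to 3 for MOAP-1 against K278R (3 without K278R tumor 3, and 0.67% of all probes). K278R had 8 called without Vector tumor 2. Without Vector 2 and RASSF1A 1 and 2 together, an alternative chosen after seeing the data, 14 were called between MOAP-1 and RASSF1A with a median of 0.18.

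Median changes in the same order were 0.37, 0.47, 0.21 and 0.37 under quantile normalization, and 0.18 in MOAP-1, 0.030 in K278R and 0.11 against RASSF1A when arrays were centred on their median, also chosen after seeing the data, which put MOAP-1 minus K264R at -0.13. Normexp gave 0.29 in K264R and turned MOAP-1 minus K264R to 0.022, and without extreme spots 0.22 in MOAP-1 and 0.28 in K264R. Brightest probes gave 0.20, 0.27 and, against RASSF1A, 0.19. Without one tumor at a time medians ran from 0.26 to 0.31, 0.34 to 0.39, 0.089 to 0.19 and 0.23 to 0.27, from 0.03 to 0.08 for RASSF1A against Vector, -0.08 to -0.03 for MOAP-1 minus K264R and 0.06 to 0.11 for MOAP-1 minus K278R. Normexp moved the median of all probes to -0.53 in MOAP-1, -0.52 in RASSF1A and -0.29 for MOAP-1 minus K264R. The members' median minus that of all probes ran over these settings from 0.20 to 0.79 in MOAP-1, 0.34 to 0.60 in K264R, 0.02 to 0.61 in K278R and 0.18 to 0.44 against RASSF1A, but also from -0.015 to 0.61 in RASSF1A, which had no call, and from -0.22 to 0.31 for MOAP-1 minus K264R. The share of member calls in MOAP-1 that were higher was 86.4%, and 100% under normexp and 95% under quantile normalization; over all probes it was 59.7%, and 48.9% under quantile, 49.2% under normexp and 42.8% under median centring.

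Dim probes turned under normexp. PSMD10 (A_33_P3335621) read -0.026 in MOAP-1 and -0.34 in K278R, and stayed higher than in Vector in both with extreme spots left out. PSMD9 (A_24_P116017) read -1.63, -0.86, -1.43 and -0.14, and -0.37, -0.70, -0.17 and -0.14 without extreme spots. Of these only the -0.70 in K264R met the call, as lower (limma adjusted p = 0.00165). The cause was not tested. PSMC5 missed the call in MOAP-1 under normexp (1.24) and the methods' t-test, with adjusted p up to 0.061. The labels do not pair tumors by number. With the replicate number as a block 22, 24, 16 and 27 probes were called. Slide as a random block gave 21, 22, 16 and 27. In each of these comparisons the groups shared no slide, so this block cannot take slide out of the difference. Within the slide of both groups, 1 tumor against 3 in each case, the median change was 0.057 for RASSF1A against Vector. It was 0.12 for MOAP-1 minus K278R, and the medians of all probes were 0.031 and -0.056. The other settings, among them no filter on dim probes and the authors' table, moved no count by over 1.5 times.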

Other observations

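Over the 15 arrays, the probes most like PSMB9, by Pearson correlation, included those of TNFRSF18 (0.99), RRP1 (0.98), MOV10 (0.97) and SMG9 (0.97). Those most like PSMB8 were DNASE1L2 (0.96), RNASET2 (0.95), RPL35 (0.94), NOB1 (0.94) and CEP128 (0.93). These are descriptions over 15 arrays of 5 constructs, chosen from all probes for their likeness.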
